A study of Homo sapiens with 12 samples.

Results

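The clade B serpins are intracellular members of the serpin family, protease inhibitors that work as single-use traps: a protease cuts the exposed reactive loop of the serpin and is left bound to it, distorted and inactive. Epithelial cells make several of them, among them inhibitors of lysosomal cysteine proteases, of plasminogen activators, of furin and of leukocyte serine proteases, and 1 member, maspin, that does not inhibit proteases. Their genes lie in a pair of clusters, on chromosomes 6 and 18, and several rise in inflamed or wounded epidermis. The 10 genes described here, SERPINB1 to SERPINB9 and SERPINB13, were chosen by symbol, and each matched 1 of the 45372 rows of the count table. Of the 10, 9 passed the filter on low counts and were tested, and SERPINB9 was not.

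The cells were HaCaT, a spontaneously immortalized line of human epidermal keratinocytes with a wild-type genotype label. Blue cultures were lit in saline by LEDs of 408 nm (irradiance 4.6 mW per cm2, 50 J per cm2 each time) 3 times a week, for 3, 14 or 42 irradiations within at most 14 weeks. The dose was set to kill part of the culture. Dark cultures were matched to each of the 3 irradiation numbers, and the sources used here do not give their handling during a session. Each of the 6 groups had 2 libraries, lettered a and b, and the labels do not say whether these were grown separately, so each p measures the spread between libraries, which may be technical. The number of irradiations goes with the time in culture and with whatever else separated the 3 sets of libraries, and these cannot be told apart. The comparison of blue with dark addresses the response to light, and the comparison of later with earlier dark cultures gives the change without light.

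Libraries were made from transcript 3' ends, about 1 tag per transcript, so levels in CPM, counts scaled to a common library size, can be set side by side between genes without a length correction. Totals ran from 2073160 to 8183941 counts, and the 14-irradiation libraries include the smallest. All 12 keratinocyte markers were detected in all libraries, and their summed level was 5923 to 6423 CPM in blue_42 and 4983 to 5571 CPM in dark_42, against 6979 to 7487 CPM in blue_3 and 6867 to 7065 CPM in dark_3. Fibroblast, leukocyte and endothelial markers each summed to at most 15.2 CPM in any library, and melanocyte markers to 10.6 to 16.4 CPM. Of the 7 melanocyte markers, MLANA, TYR and TYRP1 had no read and 2 were detected in all libraries. The 8 neuronal markers, 7 of them detected in all libraries, summed to 78.7 to 102 CPM in blue_42 and 59.7 to 97.7 CPM in dark_42, against 201 to 232 CPM in blue_3 and 171 to 175 CPM in dark_3. Between 42 and 3 irradiations 6 of 7 tested neuronal markers were called lower in blue and 2 lower in dark cultures (median log2 difference -2.0 in blue and -0.10 in dark cultures). Over all genes, 3.39% were called lower in blue and 8.26% in dark cultures. In dark cultures 6 of 7 were called higher between 14 and 3 (median 2.61), although their sum of 143 to 167 CPM in dark_14 was below that of dark_3, and 6 were called lower between 42 and 14 (median -2.64). Of 3 tested fibroblast markers, 3 were called higher between 14 and 3 in dark cultures, with a sum of 14.3 to 15.2 CPM in dark_14 against 4.28 to 4.90 CPM in dark_3. Of the same 3, 2 were called lower between 42 and 14 in dark cultures (median -3.09) and 2 between 42 and 3 in blue cultures (median -2.63). The 1 tested endothelial marker was called higher between 14 and 3 in dark cultures (2.31). It was also called higher between 42 and 3 in dark (2.38) and blue cultures (2.35), against 9.47% and 4.4% of all genes. In dark cultures 12.7% of all genes were called in either direction between 14 and 3, and 7.04% between 42 and 14. Blue against dark, 7 of 7 tested neuronal markers were above 0 at 3 irradiations (median 1.98). Of these, 2 were called higher, where 0.0155% of all genes were called in either direction. At 14 irradiations 0 of 7 were above 0 (median -1.35), at 42 irradiations 4 were (median 0.17), and none was called. The markers thus moved along the series, as serpins described below did, and neuronal ones also differed between blue and dark cultures. Their part in the results below was not tested. In bulk RNA, fewer cells of a type and less RNA per cell cannot be told apart.

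The genes that moved most, SERPINB3 and SERPINB4, are neighbouring near-copies, and their upstream sequences show how alike they are. The RefSeq sequences of the 250 bases before each start (GRCh38.p14, chr18:63661894-63662143 for SERPINB3 and chr18:63644257-63644506 for SERPINB4, both on the minus strand) are given 5′ to 3′, with capitals at the 3 positions where they differ.
SERPINB3: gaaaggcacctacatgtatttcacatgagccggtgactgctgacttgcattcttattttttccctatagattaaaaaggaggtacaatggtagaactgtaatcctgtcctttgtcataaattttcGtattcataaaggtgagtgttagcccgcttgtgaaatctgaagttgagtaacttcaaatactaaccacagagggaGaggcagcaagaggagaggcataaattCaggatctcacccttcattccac
SERPINB4: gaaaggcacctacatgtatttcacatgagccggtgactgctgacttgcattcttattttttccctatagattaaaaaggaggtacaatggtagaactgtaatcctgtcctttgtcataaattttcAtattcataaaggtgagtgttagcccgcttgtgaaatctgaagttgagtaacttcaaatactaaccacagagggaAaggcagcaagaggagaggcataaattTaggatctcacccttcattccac
Counted from 1 at the 5′ end, with the SERPINB3 base first, the differences are G126A, G201A and C228T, and the other 247 bases are identical (98.8%). The windows of SERPINB2 (chr18:63887455-63887704, plus strand) and SERPINB13 (chr18:63587093-63587342, plus strand) are shown because the blue-dark difference of SERPINB2 was of opposite sign at 3 and 42 irradiations and that of SERPINB13 at 14 irradiations was the largest relative to its SE. Both hold a match to the AP-1 motif TGANTCA, in capitals.
SERPINB2: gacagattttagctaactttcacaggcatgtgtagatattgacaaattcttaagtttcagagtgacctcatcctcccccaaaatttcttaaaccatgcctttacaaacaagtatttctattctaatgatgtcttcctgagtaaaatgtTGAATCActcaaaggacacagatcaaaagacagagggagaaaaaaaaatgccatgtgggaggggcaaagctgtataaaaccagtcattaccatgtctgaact
SERPINB13: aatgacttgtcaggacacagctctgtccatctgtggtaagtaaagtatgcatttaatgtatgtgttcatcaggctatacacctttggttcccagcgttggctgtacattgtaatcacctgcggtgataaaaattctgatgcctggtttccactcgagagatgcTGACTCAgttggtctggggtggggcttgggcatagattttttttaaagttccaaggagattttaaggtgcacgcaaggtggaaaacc
The match begins at -102 in SERPINB2 and at -87 in SERPINB13, where -1 is the base before the start. Motifs were searched on both strands in windows that also took in the 50 bases after the start. TGANTCA was present in the windows of 5 members (SERPINB2, SERPINB5, SERPINB7, SERPINB8 and SERPINB13), in 6 of the 15 windows the 10 members have, and in 7.7% of all 35116 promoters. The STAT motif TTCNNNGAA was present for SERPINB1, SERPINB7 and SERPINB8, in 3 of the 15 windows, and in 7.7% of all promoters. TATAAA was present for 6 members, in 6 of the 15 windows, and in 11.5% of all promoters. No AP-1 match overlapped a STAT or TATAAA match, and the windows of SERPINB3 and SERPINB4 held none of the 3 motifs. These matches describe letters and say nothing of binding.

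On GRCh38, 7 members lie within 543.0 kb of chromosome 18, from 63476761 to 64019779, in the order SERPINB5, SERPINB13, SERPINB4, SERPINB3, SERPINB7, SERPINB2 and SERPINB8. SERPINB3 and SERPINB4 are on the minus strand and the other 5 on the plus strand. SERPINB1, SERPINB9 and SERPINB6 lie within 139.8 kb of chromosome 6, from 2832332 to 2972165, all on the minus strand. All 10 are annotated as protein-coding. SERPINB2 overlaps SERPINB10 on the same strand, SERPINB3 overlaps SERPINB11 on the opposite strand, and SERPINB8 overlaps HMSD on the same strand and AC009802.1 on the opposite one; SERPINB5 overlaps AC036176.3 and ATP5MC1P6 on its own strand. The sources used here do not give how reads in these overlaps were assigned, so the counts of these members are uncertain to that extent.

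The 10 genes ran from the abundant to the undetected. Maspin (SERPINB5) had the highest mean over the 12 libraries, 659 CPM (range 517 to 772), and SERPINB13 came next at 551 CPM (460 to 786). These 2 genes gave between 29.6% and 48.0% and between 29.4% and 39.8% of the members' summed counts. SERPINB1 averaged 199.6 CPM (113 to 385), SERPINB6 96.1 CPM (82.3 to 118) and SERPINB2 63.4 CPM (36.5 to 96.9). SERPINB8 averaged 25.9 CPM (20.3 to 30.5), SERPINB7 20.0 CPM (6.89 to 33.3), SERPINB3 15.6 CPM (0.971 to 47.3) and SERPINB4 10.9 CPM (0.159 to 37.9). Each of these ranges overlaps that of its neighbour in the order except that SERPINB13 lies wholly above SERPINB1, and SERPINB2 wholly above SERPINB8. SERPINB9, the granzyme B inhibitor of cytotoxic lymphocytes, had 1 read, in dark_14 b, and 0 in the other 11 libraries. A count of 0 allows up to 3 counts, which is 0.364 CPM in the largest library and 1.43 CPM in the smallest. The 10 members together made up 0.147% to 0.210% of all counts, with the highest share in blue_14 b and the next, 0.183%, in blue_14 a.

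**Figure D1:**
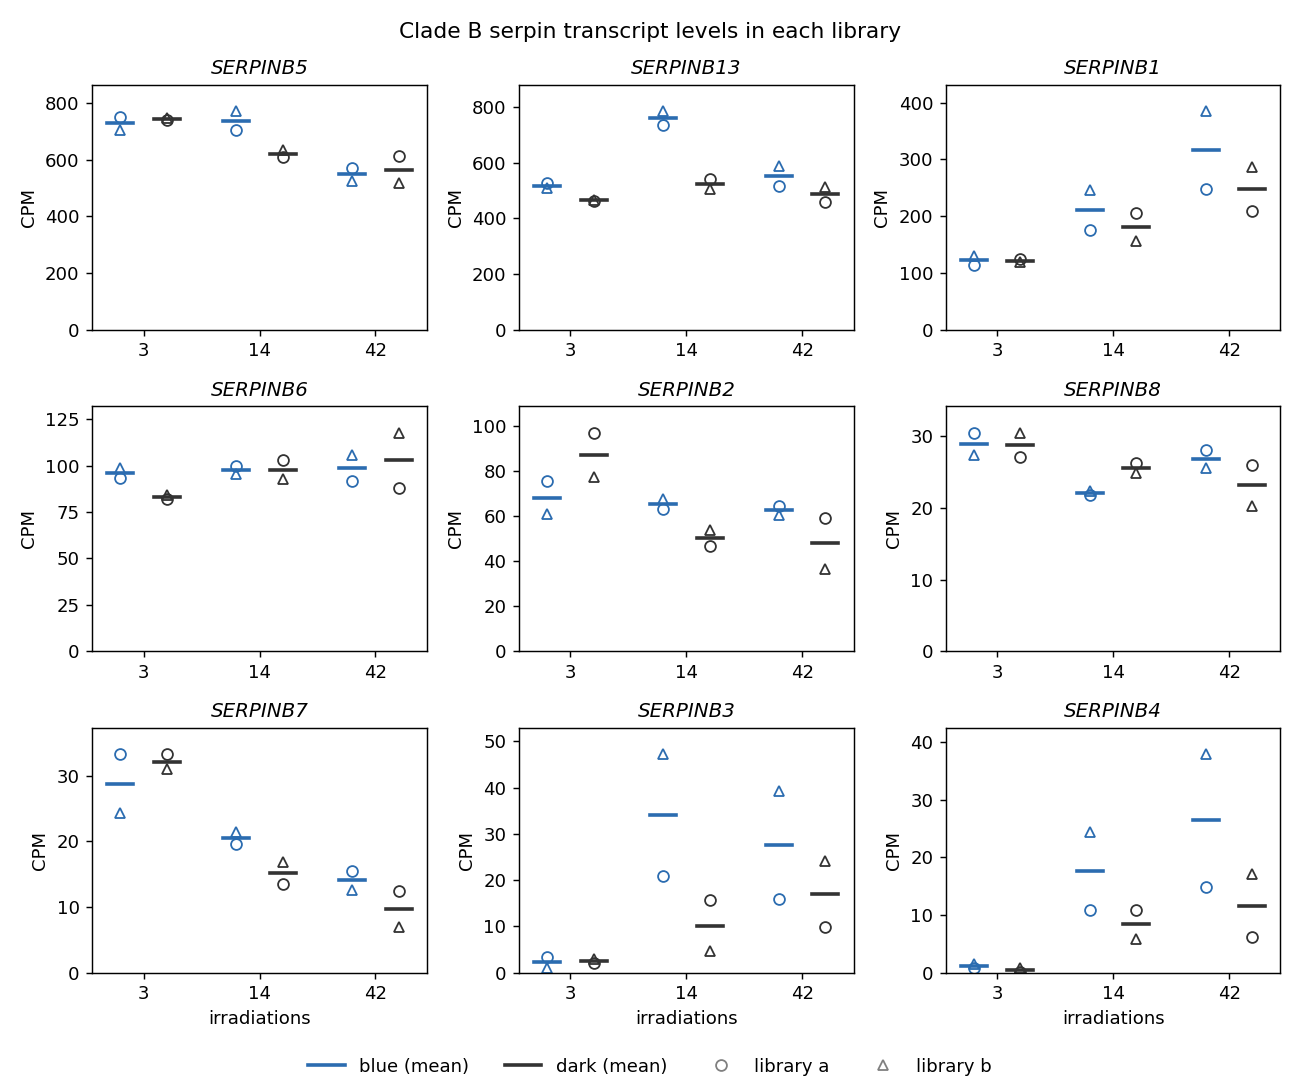
Level in CPM (vertical axes, from 0, scaled to each gene) of the 9 detected members in each of the 12 libraries against the number of irradiations, with blue light left of dark; circles are libraries a, triangles libraries b, and lines group means. SERPINB7 is at 6.89 to 15.5 CPM in the 4 libraries of 42 irradiations, below all 4 of 3 irradiations, and SERPINB1, SERPINB3 and SERPINB4 are above theirs.

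Blue light did not move any of the 9 tested serpins past the threshold at 3, 14 or 42 irradiations. In edgeR's quasi-likelihood test, with adjustment over all 12878 tested genes and a call at an adjusted p under 0.05, 0 of 9 members were called at each number. The calls over all genes were 0.0155% at 3, 0% at 14 and 1.23% at 42 irradiations, so a count of 0 among 9 is near the background. Genes with an unadjusted p under 0.05 numbered 891, 758 and 1713 over all genes, and 0, 2 and 1 among the members. DESeq2 called 0, 1 and 0 members.

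At 3 irradiations 4 of the 9 members had blue and dark libraries that did not overlap, against 43.6% of all genes; 3 were higher, against 23.7%, and 1 lower, against 19.9%. The lower one was SERPINB2, known as plasminogen activator inhibitor 2, which blocks urokinase and tissue-type plasminogen activator. Its levels were 75.2 and 60.9 CPM in blue_3 and 96.9 and 77.1 CPM in dark_3. The difference was -0.35 ± 0.18 on the log2 scale (SE, 2 libraries a group) and was not called (edgeR adjusted p = 0.733). Of the 3 higher ones, SERPINB13 stood at 526 and 508 CPM in blue_3 and 462 and 467 CPM in dark_3. SERPINB6, an intracellular inhibitor of serine proteases such as cathepsin G, stood at 93.3 and 98.9 CPM in blue_3 and 82.3 and 84.4 CPM in dark_3. SERPINB4 was among them as well, with only 6 and 9 reads in blue_3 and 1 and 5 reads in dark_3.

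At 14 irradiations more of the serpins had blue libraries on one side of the dark ones. The blue libraries were both above both dark ones for 6 of 9 members (SERPINB2, SERPINB3, SERPINB4, SERPINB5, SERPINB7 and SERPINB13), against 16.6% of all genes, and both below for SERPINB8, again against 16.6% of all genes. These counts carry no test, and the 6 were not called. SERPINB13, known as headpin or hurpin and an inhibitor of cathepsins L and K, had the most precise difference of them. Its levels were 738 and 786 CPM in blue_14 and 543 and 505 CPM in dark_14, and the groups stood well apart. The difference was 0.54 ± 0.11 on the log2 scale, 1.45-fold, with an unadjusted p of 8.52e-05 in edgeR and an adjusted p of 0.552. That was also the smallest adjusted p among the 12878 genes in this comparison. It is a tied value, which the adjustment carried back from a gene of larger unadjusted p, so it does not set SERPINB13 apart. DESeq2 called SERPINB13 with an adjusted p of 0.0130, and edgeR did so at 0.0228 without the filter on low counts.

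Maspin was 704 and 772 CPM in blue_14 and 609 and 636 CPM in dark_14, a log2 difference of 0.24 ± 0.11 (edgeR adjusted p = 0.834). SERPINB2 was 63.2 and 67.3 CPM in blue_14 and 46.4 and 53.7 CPM in dark_14, a difference of 0.37 ± 0.20 (edgeR adjusted p = 0.849). SERPINB7, known as megsin, whose loss causes Nagashima-type palmoplantar keratosis in people, was 19.5 and 21.5 CPM in blue_14 and 13.5 and 16.9 CPM in dark_14 (0.39 ± 0.25 on the log2 scale, edgeR adjusted p = 0.872). None of these 3 was called, although the blue and dark libraries did not overlap. SERPINB3 and SERPINB4, the squamous cell carcinoma antigens, are inhibitors of cysteine cathepsins and of chymotrypsin-like serine proteases. SERPINB3 had 73 and 99 reads in blue_14, or 21.0 and 47.3 CPM, and 55 and 36 reads in dark_14, or 15.8 and 4.60 CPM. Its log2 difference of 1.89 ± 0.91 was not called (edgeR adjusted p = 0.846). SERPINB4 was 10.92 and 24.4 CPM in blue_14 and 10.88 and 5.88 CPM in dark_14, so the lower blue and the higher dark library were level (1.10 ± 0.84 on the log2 scale, edgeR adjusted p = 0.897). These 4 libraries include the shallowest, blue_14 b, in which 1 read is a larger step than elsewhere.

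At 42 irradiations 3 of 9 members, SERPINB2, SERPINB7 and SERPINB13, had both blue libraries above both dark ones, against 21.3% of all genes, and none had both below, against 20.9%. SERPINB7 was 15.5 and 12.6 CPM in blue_42 and 12.4 and 6.89 CPM in dark_42. Its difference of 0.54 ± 0.23 on the log2 scale was not called (edgeR adjusted p = 0.308). SERPINB2 was 64.4 and 60.5 CPM in blue_42 and 58.9 and 36.5 CPM in dark_42, a difference of 0.39 ± 0.18 (edgeR adjusted p = 0.381). For both genes dark_42 b lay well under the other 3 libraries, which were close together. Both differences rest on that library. Without dark_42 b they were 0.18 for SERPINB7 and 0.08 for SERPINB2 (edgeR adjusted p = 0.834 and 0.898), and with it as the lone dark library, without dark_42 a, they were called at 1.03 and 0.77 (edgeR adjusted p = 0.0381 and 0.0189). SERPINB4 was 14.8 and 37.9 CPM in blue_42 and 6.15 and 17.0 CPM in dark_42, and the groups overlapped (1.19 ± 0.62 on the log2 scale, edgeR adjusted p = 0.488). SERPINB1, the inhibitor of neutrophil elastase and other neutrophil proteases, was 247 and 385 CPM in blue_42 and 209 and 286 CPM in dark_42 (0.35 ± 0.24, edgeR adjusted p = 0.593); its log2 difference was 0.0019 without blue_42 b and 0.64 without blue_42 a.

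The blue-dark difference of SERPINB2 was negative at 3 and positive at 42 irradiations. The mean of SERPINB7 was likewise 28.8 ± 6.34 CPM in blue_3 and 32.1 ± 1.65 CPM in dark_3, but 14.1 ± 2.03 CPM in blue_42 and 9.66 ± 3.91 CPM in dark_42 (SD, n = 2 each). The test of the light effect at 42 minus that at 3 gave 0.74 ± 0.26 on the log2 scale for SERPINB2 (edgeR adjusted p = 0.285) and 0.69 ± 0.30 for SERPINB7 (edgeR adjusted p = 0.389). Neither was called, and 0 of 9 members were, against 0.435% of all genes; DESeq2 called 0 members, and at an unadjusted p under 0.05 there were 2 members and 1450 genes. Without the filter on low counts SERPINB2 was called, with an adjusted p of 0.00869 at 0.75, with DESeq2 giving no call. Without dark_42 a both were called, at 1.13 for SERPINB2 and 1.18 for SERPINB7, and without dark_42 b they were 0.43 for SERPINB2 and 0.33 for SERPINB7, neither called.

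**Figure D2:**
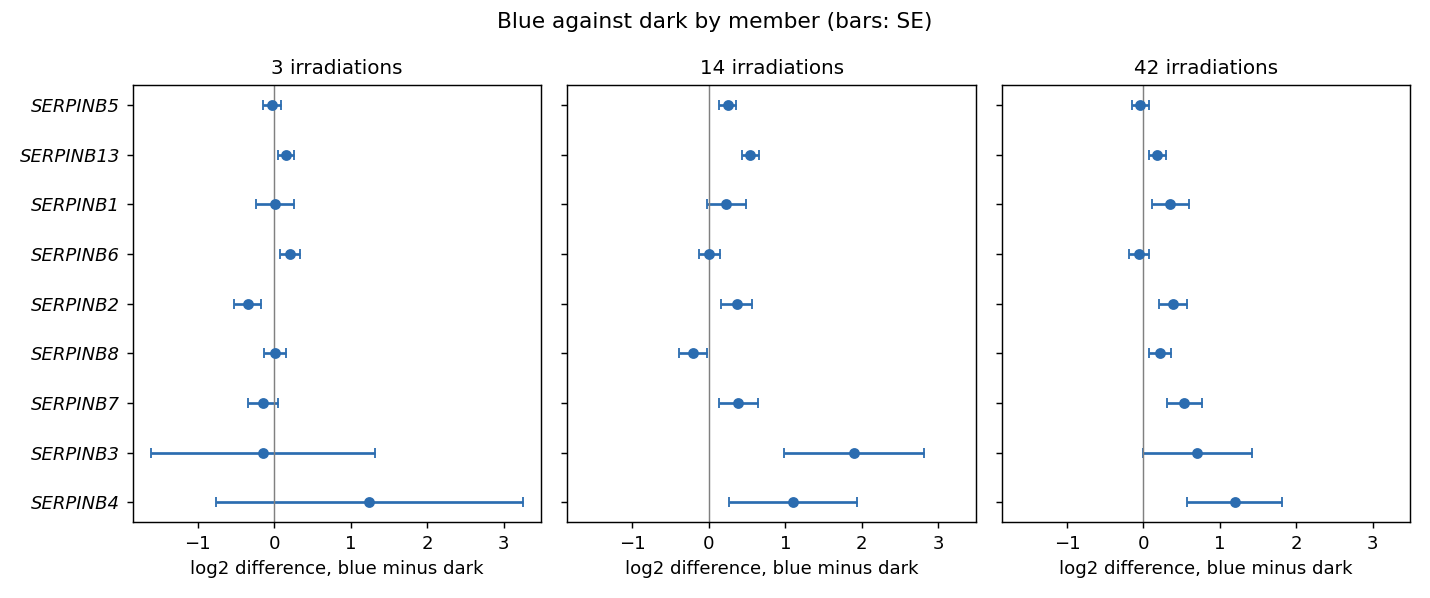
Log2 difference, blue minus dark, of the 9 tested members at 3, 14 and 42 irradiations, with bars of 1 SE from edgeR's test and genes from highest to lowest mean level downwards. No member was called at any number; SERPINB13 at 14 irradiations is farthest from 0 relative to its bar, at 0.54 ± 0.11, and the bars of SERPINB3 and SERPINB4 are the widest.

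The serpins did change along the series in cultures kept in the dark. After 42 against 3 irradiations, dark cultures had more SERPINB1 and SERPINB4 and less SERPINB7, SERPINB2 and SERPINB5. These 5 of 9 members were called, 2 higher and 3 lower, against 17.7% of all genes, 9.47% higher and 8.26% lower. In blue cultures 4 of 9 were called over the same span, SERPINB1 and SERPINB4 higher and SERPINB7 and SERPINB5 lower, against 7.78% of all genes, 4.4% higher and 3.39% lower. SERPINB4 had 1 and 5 reads in dark_3 and 6 and 9 in blue_3, under the filter's minimum count of 10. It was therefore tested only because its later libraries had more reads, so its calls do not count as separate support for a rise. The blue and the dark series share no library, whereas within a series the comparisons of 14 and of 42 with 3 irradiations share the libraries of 3.

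SERPINB7, megsin, was lower at later numbers of irradiations. In blue cultures it was 33.2 and 24.3 CPM after 3, 19.5 and 21.5 CPM after 14 and 15.5 and 12.6 CPM after 42 irradiations. In dark cultures it was 33.3 and 31.0 CPM after 3, 13.5 and 16.9 CPM after 14 and 12.4 and 6.89 CPM after 42. At each later number the libraries lay below those of the number before, in both series. Between 42 and 3 irradiations it fell by 1.04 ± 0.21 on the log2 scale in blue cultures, 2.06-fold (edgeR adjusted p = 0.00374), and by 1.73 ± 0.22 in dark cultures, 3.32-fold (edgeR adjusted p = 3.08e-05). The dark call held in all 12 fits that each left out 1 library, at 1.37 to 2.22 lower; the blue call was lost without blue_3 a or without blue_42 b. Most of the dark change was there at 14 irradiations, at -1.04 ± 0.21 against 3 (edgeR adjusted p = 0.00423; 0.0523 without dark_3 a), and 42 against 14 gave -0.68 ± 0.24 (edgeR adjusted p = 0.0945).

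SERPINB2 fell in the dark and was not called in blue light. Dark cultures had 96.9 and 77.1 CPM after 3, 46.4 and 53.7 CPM after 14 and 58.9 and 36.5 CPM after 42 irradiations, so that the later 4 libraries all lay below the first 2. The fall in dark cultures was 0.78 ± 0.19 on the log2 scale between 14 and 3 (edgeR adjusted p = 0.0144) and 0.86 ± 0.18, 1.82-fold, between 42 and 3 (edgeR adjusted p = 0.00478). Both calls were lost without dark_3 a, at adjusted p of 0.138 and 0.0652, and the call between 14 and 3 was also lost without dark_14 a. Blue cultures had 64.4 and 60.5 CPM after 42 and 75.2 and 60.9 CPM after 3 irradiations, and the groups overlapped (-0.13 ± 0.18, edgeR adjusted p = 0.745). The 2 changes were not shown to differ, since their difference is the light effect tested above.

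Maspin fell by a smaller step at a high level. It was 573 and 526 CPM in blue_42 against 752 and 707 CPM in blue_3, and 614 and 517 CPM in dark_42 against 742 and 749 CPM in dark_3. The differences were -0.41 ± 0.11 on the log2 scale in blue (edgeR adjusted p = 0.0298) and -0.40 ± 0.11 in dark cultures (edgeR adjusted p = 0.0181), each 1.3-fold lower. Neither group of 42 overlapped its group of 3. The call was lost in 6 of the 12 fits that left out 1 library in blue, namely those without a dark_3, blue_3 or blue_42 library. In dark it was lost in 3 of 12, without either dark_3 library or without dark_42 b.

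SERPINB1 rose in both series. It was 113 and 131 CPM after 3, 176 and 246 CPM after 14 and 247 and 385 CPM after 42 irradiations in blue cultures. In dark cultures it was 124 and 119 CPM after 3, 205 and 155 CPM after 14 and 209 and 286 CPM after 42. Each group lay above the one of the number before, while its spread between libraries widened, with an SD of 97.5 CPM in blue_42 and 54.3 CPM in dark_42 against 12.3 CPM in blue_3 and 3.63 CPM in dark_3. The rise between 42 and 3 was 1.38 ± 0.25 on the log2 scale, 2.60-fold, in blue (edgeR adjusted p = 0.00941) and 1.03 ± 0.25, 2.04-fold, in dark cultures (edgeR adjusted p = 0.0188). The blue call was lost without either blue_3 library, and the dark one without either dark_3 library or dark_42 b. Between 14 and 3 the values of 0.78 ± 0.25 in blue (edgeR adjusted p = 0.106) and 0.56 ± 0.25 in dark cultures (edgeR adjusted p = 0.179) were not called. DESeq2 called the blue difference (adjusted p = 0.00730) and not the dark one, and edgeR without robust estimation did the same. Without the filter on low counts, or with only the libraries compared, edgeR called both.

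SERPINB4 went with SERPINB1 in direction and had the largest folds of the members, at low counts. It had 6 and 9 reads in blue_3, 38 and 51 in blue_14 and 115 and 312 in blue_42. In dark cultures it had 1 and 5 reads in dark_3, 38 and 46 in dark_14 and 48 and 131 in dark_42. As said above, it passed the filter on low counts through its later libraries. In CPM, the pair of libraries was at 14.8 and 37.9 in blue_42 against 0.795 and 1.46 in blue_3, and at 6.15 and 17.0 in dark_42 against 0.159 and 0.720 in dark_3. Relative to library size, the pooled counts of 42 over 3 gave a ratio of 24.5 (exact 95% interval 14.7 to 44.1) in blue and 25.5 (11.5 to 70.4) in dark cultures. These intervals cover counting error only. The log2 differences were 4.57 ± 0.94 in blue (edgeR adjusted p = 0.0332) and 4.62 ± 1.24 in dark cultures (edgeR adjusted p = 0.0460). Both calls are narrow: they were lost without the filter on low counts (0.0571 in blue, 0.0957 in dark) and without the 14-irradiation libraries (0.0581 in blue, 0.0728 in dark), the blue call was also lost with only the libraries compared in the fit (0.131), and of 12 fits leaving out 1 library 7 kept the call in blue and 3 in dark. The direction held in all of them, with log2 differences of 3.73 to 5.07 in blue and 3.70 to 6.02 in dark cultures. Between 14 and 3 irradiations the log2 differences of 3.89 ± 1.10 in blue (edgeR adjusted p = 0.0973) and 4.04 ± 1.38 in dark cultures (edgeR adjusted p = 0.113) were not called. DESeq2 called both (adjusted p = 0.000581 in blue, 0.00112 in dark), as did edgeR without robust estimation or with only the libraries compared. The limit from the filter holds for these calls as well.

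SERPINB3 had more reads in the later libraries as well and was not called in edgeR's test, whereas DESeq2 did call it. It had 26 and 6 reads in blue_3, 73 and 99 in blue_14 and 123 and 324 in blue_42, and 13 and 21 in dark_3, 55 and 36 in dark_14 and 77 and 186 in dark_42. The 42 libraries lay above the 3 libraries in both series, and in CPM the 2 libraries of a group differed by more than 2-fold in 5 of the 6 groups. The log2 differences between 42 and 3 were 3.57 ± 0.99 in blue (edgeR adjusted p = 0.0899) and 2.72 ± 1.03 in dark cultures (edgeR adjusted p = 0.128). The count ratios were 12 (exact 95% interval 8.38 to 17.8) in blue and 6.61 (4.62 to 9.75) in dark cultures. Between 14 and 3 in blue cultures the log2 difference was 3.80 ± 1.07 (edgeR adjusted p = 0.0988). DESeq2 called SERPINB3 in blue cultures for 14 against 3 (adjusted p = 0.00134) and 42 against 3 (adjusted p = 0.00351) and in dark cultures for 42 against 3 (adjusted p = 0.0273). Without robust estimation edgeR called all 3 as well, and no fit that left out 1 library called any of them.

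Because the 2 genes can share reads, their split was examined. The GENCODE transcripts are 1777 bases for SERPINB3 and 1749 for SERPINB4 and are identical at 94.2% of aligned positions. Over the last 500 bases, where 3' tags fall, they differ at 18 positions (96.4% identity). A read of 50 bases from there matches both genes in 21.5% of its possible positions and one of 100 bases in 1.7%, and the sources used here do not give the read length. SERPINB4 held 48.3% (exact 95% interval 41.8 to 54.9) and 49.1% (45.1 to 53.0) of the pair's reads in blue_42, and 38.4% (29.8 to 47.5) and 41.3% (35.9 to 47.0) in dark_42. At 14 irradiations the shares were 34.2% and 34% in blue_14 against 40.9% and 56.1% in dark_14, the opposite order. At 3 irradiations the pair had only 14 to 32 reads a library, and SERPINB4 had 18.8% and 60% in blue_3 and 7.14% and 19.2% in dark_3. Intervals cover counting error only.

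The sum of both genes does not depend on the split. It would still miss reads that match both genes if counting dropped them, which the sources used here do not state. Summed before the fit, they differed between 42 and 3 by 3.98 ± 0.93 on the log2 scale in blue (edgeR adjusted p = 0.0561) and 3.24 ± 1.02 in dark cultures (edgeR adjusted p = 0.0787), and were not called. Between 14 and 3 the sum differed by 3.85 ± 1.02 in blue (edgeR adjusted p = 0.0864) and 2.46 ± 1.14 in dark cultures (edgeR adjusted p = 0.228). All 4 were called by DESeq2 and by edgeR without robust estimation. Blue minus dark, the sum gave 0.18 ± 1.46 at 3, 1.56 ± 0.84 at 14 and 0.92 ± 0.67 at 42 irradiations, none called (edgeR adjusted p = 0.990, 0.867 and 0.641). Leaving out 1 library took it to between 0.89 (without dark_14 b) and 2.23 (without dark_14 a) at 14 irradiations, and to between 0.11 (without blue_42 b) and 1.76 (without dark_42 b) at 42.

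**Figure D3:**
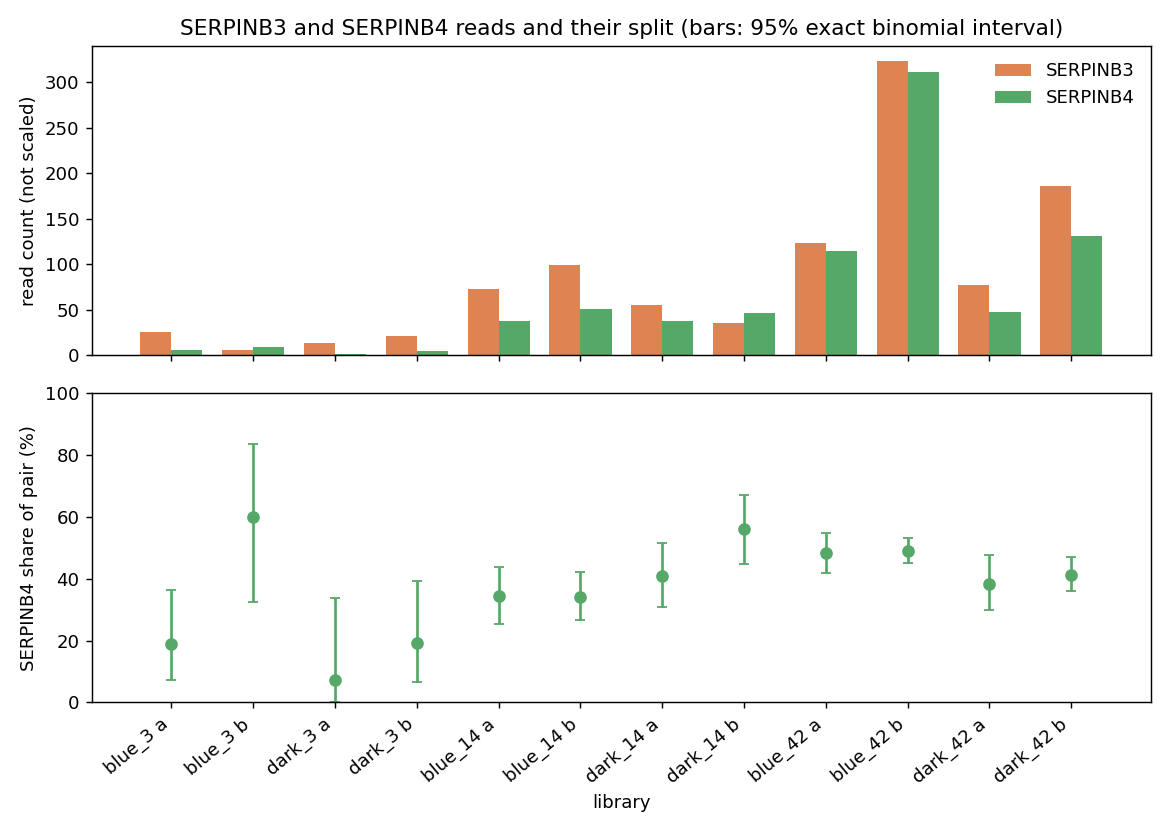
Upper panel, reads of SERPINB3 and SERPINB4 in each of the 12 libraries, not scaled for library size; lower panel, the share of the pair's reads given to SERPINB4 with its exact 95% binomial interval. Reads are fewest in the 4 libraries of 3 irradiations, where the intervals are widest, and the share is 48.3% and 49.1% in blue_42 against 38.4% and 41.3% in dark_42.

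SERPINB13 was the member called between 14 and 3 irradiations in blue cultures, where 1 of 9 was called, against 6.22% of all genes and 3.62% higher. It was 738 and 786 CPM in blue_14 and 526 and 508 CPM in blue_3, a rise of 0.56 ± 0.11 on the log2 scale, 1.47-fold (edgeR adjusted p = 0.00641). The blue_14 libraries also enter the comparison of blue with dark at 14 irradiations given above. The call was lost without blue_3 b or blue_14 b, at up to an adjusted p of 0.0772. In blue_42 it stood at 517 and 587 CPM, and 42 against 14 gave -0.46 ± 0.11 (edgeR adjusted p = 0.0776). For maspin 42 against 14 in blue cultures gave -0.42 ± 0.11 (edgeR adjusted p = 0.114), and neither was called in edgeR's test. DESeq2 called both (adjusted p = 0.0165 for SERPINB13 and 0.0498 for maspin), and edgeR called SERPINB13 without the filter on low counts (adjusted p = 0.0298). In dark cultures SERPINB13 was between 460 and 543 CPM in all 6 libraries.

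The other comparisons of the series held few calls among the serpins. Between 14 and 3 irradiations in dark cultures 2 of 9 were called, SERPINB7 and SERPINB2, both lower, against 12.7% of all genes and 4.61% lower. Between 42 and 14 none of 9 was called in blue cultures, against 0.241% of all genes, or in dark cultures, against 7.04%. At an unadjusted p under 0.05 there were 4 members and 1609 genes in blue and 1 member and 2810 genes in dark cultures. DESeq2 called 2 members in blue, SERPINB13 and SERPINB5, and 0 in dark cultures. SERPINB6 and SERPINB8, an inhibitor of furin, had the least spread between group means of the 9 tested members. SERPINB6 was 91.9 and 106 CPM in blue_42 and 88.1 and 118 CPM in dark_42, against 93.3 and 98.9 CPM in blue_3 and 82.3 and 84.4 CPM in dark_3. Its dark difference of 0.30 ± 0.13 was not called (edgeR adjusted p = 0.108). SERPINB8 was 28.1 and 25.6 CPM in blue_42 and 26.0 and 20.3 CPM in dark_42, against 30.5 and 27.4 CPM in blue_3 and 27.1 and 30.5 CPM in dark_3, and its dark difference of -0.32 ± 0.15 was not called (edgeR adjusted p = 0.138).

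**Figure D4:**
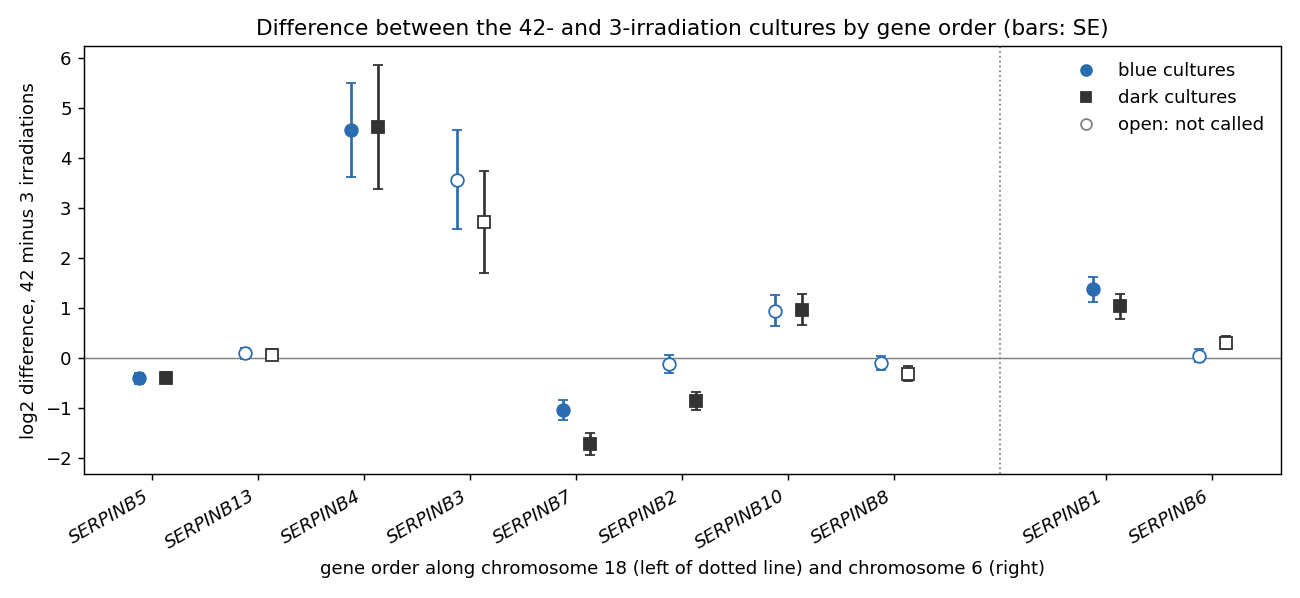
Log2 difference between cultures of 42 and of 3 irradiations for the tested clade B serpins, SERPINB10 included, in gene order along chromosome 18 (left of the dotted line) and chromosome 6 (right), with bars of 1 SE; filled symbols were called in edgeR. Neighbours differ in sign: SERPINB4 is at 4.57 in blue and 4.62 in dark cultures, while SERPINB7, next to the pair, is at -1.04 and -1.73. SERPINB4 passed the filter on low counts through its later libraries.

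Neighbouring genes of the chromosome 18 cluster thus had differences of opposite sign between 42 and 3 irradiations. For the pair beside SERPINB7 this is a description only. SERPINB4 passed the filter on low counts through its later libraries, and SERPINB3 and the summed pair were not called in edgeR's test. Of the 3 other clade B genes on the same chromosome, SERPINB11 had 1 read and SERPINB12 had 3 reads in all 12 libraries. SERPINB10, which overlaps SERPINB2 on the same strand, averaged 5.49 ± 0.823 CPM in blue_42 against 2.85 ± 0.0936 CPM in blue_3, and 5.49 ± 1.79 CPM in dark_42 against 2.82 ± 0.725 CPM in dark_3 (SD, n = 2 each). Its dark difference of 0.97 ± 0.32 on the log2 scale was called (edgeR adjusted p = 0.0392), opposite in sign to that of SERPINB2. Among 10 tested genes that flank the clusters, none was called in blue cultures between 42 and 3 and 1 in dark cultures, PHLPP1, an Akt phosphatase, at 0.45 ± 0.13 (edgeR adjusted p = 0.0218). Over all genes, 7.78% were called in blue and 17.7% in dark cultures. The median of these 10 was 0.06 in blue and -0.12 in dark cultures, against medians over all tested genes of -0.0012 and 0.02.

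The proteases that clade B serpins are known to inhibit were read from the same fit. Between 42 and 3 irradiations 1 of 6 tested targets was called higher and 1 lower in blue cultures, and 3 higher and none lower in dark cultures. Over all genes, 4.4% were called higher and 3.39% lower in blue cultures, and 9.47% higher and 8.26% lower in dark cultures. The list's median was 0.63 in blue and 0.56 in dark cultures on the log2 scale. PLAU, urokinase, a target of SERPINB2, rose by 1.71 ± 0.27 in blue (edgeR adjusted p = 0.00388) and 1.10 ± 0.27 in dark cultures (edgeR adjusted p = 0.0189). Its mean was 81.5 ± 16.6 CPM in blue_42 against 24.5 ± 11.4 CPM in blue_3, and 59.6 ± 8.57 CPM in dark_42 against 27.8 ± 2.20 CPM in dark_3 (SD, n = 2 each). PLAT, the tissue-type activator and also a target of SERPINB2, rose by 3.48 ± 0.82 in dark cultures (edgeR adjusted p = 0.0331), with means of 99.1 ± 67.9 CPM in dark_42 and 8.90 ± 1.99 CPM in dark_3 (SD, n = 2 each). PLAT was not called in blue cultures, though its mean was 104 ± 50.7 CPM in blue_42 against 16.9 ± 2.19 CPM in blue_3 (SD, n = 2 each). In dark cultures, SERPINB2 fell while both activators rose. CTSS, cathepsin S, a target of SERPINB3, rose by 2.72 ± 0.47 in dark cultures (edgeR adjusted p = 0.00674). CTSS was not called in blue cultures, with means of 26.0 CPM in blue_42 and 11.2 CPM in blue_3. CTSV, cathepsin V, fell by 0.53 ± 0.14 in blue cultures (edgeR adjusted p = 0.0232).

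Of 10 tested cysteine cathepsins and legumain, 1 was higher and 1 lower in blue cultures and 2 were higher in dark cultures over the same span. The shares over all genes are those given above for this span, here and for the serine proteases below. CTSC, the cathepsin that activates leukocyte serine proteases, rose by 0.90 ± 0.14 in blue (edgeR adjusted p = 0.000298) and 0.57 ± 0.14 in dark cultures (edgeR adjusted p = 0.00642); the others are CTSV and CTSS. The list medians were 0.19 in blue and 0.25 in dark cultures. Of 15 tested epidermal serine proteases, 1 was higher and 3 lower in blue and 3 higher and 1 lower in dark cultures, with a median of -0.31 in blue and -0.32 in dark cultures. KLK5, a kallikrein that starts the desquamation cascade, fell by 1.01 ± 0.11 in blue (edgeR adjusted p = 9.33e-06) and by 0.74 ± 0.11 in dark cultures (edgeR adjusted p = 0.000126). KLK10 and KLK11 fell in blue cultures, by 0.73 ± 0.11 (edgeR adjusted p = 0.000397) and 0.84 ± 0.17 (edgeR adjusted p = 0.00450). Neither was called in dark cultures, where KLK10 had means of 165 CPM in dark_42 and 206 CPM in dark_3, and KLK11 15.5 and 19.9 CPM. TMPRSS4, a membrane serine protease, rose in dark cultures by 0.56 ± 0.12 (edgeR adjusted p = 0.00316), and PLAU and PLAT are the rest.

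Other inhibitors were called in 1 direction. Of 12 tested epithelial protease inhibitors outside the serpins, 2 were higher and none lower in blue, and 4 higher and none lower in dark cultures, between 42 and 3 irradiations. The shares over all genes were 4.4% higher and 3.39% lower in blue, and 9.47% higher and 8.26% lower in dark cultures. The list's median was 0.30 in blue and 0.42 in dark cultures, beside the all-gene medians given above. PI3 (elafin) and SLPI, which inhibit neutrophil elastase as SERPINB1 does, were called in both. PI3 rose by 4.94 ± 0.49 in blue (edgeR adjusted p = 0.000870) and 3.86 ± 0.63 in dark cultures (edgeR adjusted p = 0.00504). SLPI rose by 1.20 ± 0.16 in blue (edgeR adjusted p = 0.000233) and 1.57 ± 0.17 in dark cultures (edgeR adjusted p = 1.19e-05). WFDC2, a relative of both, and CSTA, the cysteine protease inhibitor cystatin A, rose in dark cultures by 1.81 ± 0.41 (edgeR adjusted p = 0.0257) and 0.46 ± 0.13 (edgeR adjusted p = 0.0155). Neither was called in blue cultures, where their means were also higher after 42 irradiations. WFDC2 was at 178 ± 55.2 CPM in blue_42 and 54.7 ± 6.38 CPM in blue_3, and CSTA at 167 ± 13.5 and 149 ± 9.05 CPM (SD, n = 2 each). Of 6 tested serpins of other clades, 1 was higher in blue cultures, SERPINE2, protease nexin 1, which rose by 0.83 ± 0.19 (edgeR adjusted p = 0.00949). SERPINE2 was not called in dark cultures, with means of 9.74 CPM in dark_42 and 6.52 CPM in dark_3. Blue against dark at 42 irradiations, none of the listed proteases or other serpins was called and PI3 was the 1 inhibitor called of 12. Over all genes, 1.23% were called in that comparison.

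The members whose group means varied most were SERPINB4, SERPINB3 and SERPINB7, with SDs over the 6 group means of 2.05, 1.62 and 0.66 on the log2 CPM scale. For each, the 3 most similar genes among 8688 with a mean of at least 10 CPM were found by Pearson's r of log2 CPM over the 12 libraries, as a description without a test, since the libraries share the shift along the series. SERPINB4 was most like DRAM1 (r = 0.984), a lysosomal membrane protein, S100A9 (r = 0.981), a subunit of calprotectin, and LOXL2 (r = 0.978), a lysyl oxidase. SERPINB3 was most like LAMA5 (r = 0.960), a laminin chain, OSMR (r = 0.959), the oncostatin M receptor, and VMP1 (r = 0.949), an autophagy protein. SERPINB7 was most like ATP5MC3 (r = 0.964), a subunit of ATP synthase, EXOSC6 (r = 0.963), a subunit of the RNA exosome, and MAPKAP1 (r = 0.959), a subunit of mTORC2.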

How the data were processed

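The authors deposited raw, whole-number read counts per gene for the 12 libraries in 1 table. Alignment to GRCh38 used STAR and counting featureCounts, per the submitters' processing notes, which give no versions. The sources used here do not give the annotation release, strand setting, read length or molecular identifiers. Libraries were QuantSeq 3' FWD, per the labels' protocols. Groups came from the sample titles.

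In R 4.3.3, edgeR 4.0.16 kept 12878 of 45372 genes (filterByExpr, minimum count 10), scaled by TMM, and fitted 1 robust quasi-likelihood model with a mean for each of 6 groups, with 6 residual degrees of freedom. Two-sided tests had Benjamini-Hochberg adjustment over all tested genes in a comparison, and genes were called at an adjusted p under 0.05. SEs are from the test statistic. CPM are counts scaled by TMM-adjusted totals, and 1 library's precision follows its total of 2073160 to 8183941 counts. Libraries of 1 group differed beyond sampling noise (chi-square per degree of freedom 1.61 to 7.98), so each counted as 1 replicate.

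All members were named whatever their values. From each list of other genes the text names those called, up to the 4 largest by comparison; some listed genes are not reported here. The members and lists were chosen with earlier results of these data known. Gene positions and transcripts came from GENCODE on GRCh38, and promoter windows from RefSeq (GRCh38.p14), which matched all 10 members. The test was checked on simulated counts. Alternatives were RLE scaling, DESeq2 1.42.0, no filter or a filter at 5 CPM, a replicate block, non-robust estimation, only the compared libraries, and leaving out each library. After seeing the data, fits without the 14-irradiation libraries and with crossed letters were added.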

Additional observations from a re-analysis of the deposited data

How the results depend on the processing

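The serpin results kept their direction under every alternative run for the values in the report except 2: leaving out 1 library took the summed SERPINB3 and SERPINB4 difference of blue against dark at 3 irradiations to between -0.31 and 0.61, and the SERPINB2 difference of 42 against 3 in blue cultures to between -0.27 and 0.02 (0.0195 without blue_3 a). RLE scaling and the 5 CPM filter moved no serpin across the threshold. Where a library was left out, the lone library of its group was assumed to vary like the others. Depth limits SERPINB3 and SERPINB4 most: in dark_3 they had 34 and 6 reads in all. Leaving out 1 library took the uncalled blue-dark difference at 14 irradiations to between 1.04 and 2.81 for SERPINB3 and 0.51 and 1.65 for SERPINB4, that of SERPINB4 at 42 to between 0.36 and 2.10, and the SERPINB7 difference of 42 against 14 in dark cultures to between -1.17 and -0.33. Where no reason is given, the cause was not tested.

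Genes called, for blue against dark at 3 irradiations, numbered 2 and became 1 with DESeq2, 54 without a filter, 22 with only the libraries compared, 8 without the 14-irradiation libraries and 0 with the 5 CPM filter or without robust estimation; leaving out 1 library gave 0 to 6. At 14 irradiations 0 became 2 with DESeq2 and 14 without a filter, and 0 to 11 on leaving out 1 library. At 42 irradiations 158 became 420, 100 with only the libraries compared and 246 without the 14-irradiation libraries, and 24 to 235 on leaving out 1 library. For the light effect at 42 minus that at 3, 56 became 288 without a filter and 2 to 209 on leaving out 1 library. In blue cultures, leaving out 1 library gave 110 to 1076 calls for 14 against 3, 258 to 1224 for 42 against 3 and 7 to 253 for 42 against 14. Without a filter, 14 against 3 gave 1348 and 42 against 14 gave 298; DESeq2 gave 615 for 42 against 3 and 61 for 42 against 14, and only the libraries compared gave 503 for 14 against 3. In dark cultures, leaving out 1 library gave 336 to 1987 for 14 against 3, 765 to 2574 for 42 against 3 and 284 to 1113 for 42 against 14, and only the libraries compared gave 2651 for 14 against 3 and 443 for 42 against 14.

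Serpins called at 14 irradiations in blue against dark became 1 with DESeq2 or without a filter. Leaving out 1 library gave 0 to 2 at 42 irradiations and for the light effect difference, which was 1 without a filter. In blue cultures it gave 0 to 3 for 14 against 3, 0 to 4 for 42 against 3 and 0 to 1 for 42 against 14. For 14 against 3 in blue, 4 were called with DESeq2, without robust estimation or with only the libraries compared, and 2 without a filter; for 42 against 14 both DESeq2 and no filter gave 2. In dark cultures it gave 0 to 3 for 14 against 3 (5 with only the libraries compared), 1 to 7 for 42 against 3 and 0 to 1 for 42 against 14 (2 without a filter).

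The summed SERPINB3 and SERPINB4 differences (14 and 42 against 3) were called with DESeq2 at 3.94 and 4.01 in blue and 2.61 and 3.25 in dark cultures. They were called without robust estimation at 3.85 and 3.98 in blue and 2.46 and 3.24 in dark cultures. With only the libraries compared they were called at 3.86 (14 against 3) in blue and 2.46 and 3.23 in dark cultures. No fit that left out 1 library called them, at 3.20 to 4.38 and 3.16 to 4.48 in blue and 1.77 to 3.13 and 2.4 to 3.75 in dark cultures.

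With a replicate block on the letter, genes called became 0 for blue against dark at 3 irradiations and 92 for the light effect difference, and 2 serpins were called for 14 against 3 in blue cultures. SERPINB4 was then called for 14 against 3, at 3.91 in blue and 4.03 in dark cultures; the replicate block changed no other serpin call. The letters are not shown to pair libraries: of 15 pairs of groups, 4 had deviations correlated over 0.1 and 4 under -0.1 (-0.442 to 0.405). Crossed letters in the 4 libraries of 14 irradiations gave 83 genes and 3 serpins called, a fit added after seeing the data.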
